A study of Mus musculus with 16 samples.

Results

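The transcription factor NRF2 (gene Nfe2l2), 4 genes whose proteins restrain it or join it on DNA (Keap1, Bach1, Mafg and Mafk) and 5 of its target genes (Nqo1, Hmox1, Sqstm1, Osgin1 and Abcc1) were followed in MC/9 cells and in the exosomes that these cells release. The line MC/9 was derived from mouse mast cells, and exosomes are small vesicles that cells shed and that carry RNA. The 10 genes were taken by name and not by a signal threshold, though with earlier results of these data known. Their symbols were carried alone by 16 probe sets, of 45037 probe sets and 18193 genes on the array. RNA had been hybridised to 16 Affymetrix mouse arrays in 4 groups of 4: cells from normal conditions (norm cell), cells exposed to 125 µM H2O2 for 24 h (oxi cell), and exosomes from normal (norm exo) and from H2O2 conditions (oxi exo). All cultures were of the same line, kept with serum and Rat T-Stim from which exosomes had been spun out. The sample descriptions speak of the cells as recipients of exosomes of each condition, whereas the paper treats them as the donor cells given vehicle or H2O2, and the groups followed the titles, which name the condition only. The paper says of a pair of norm cell samples, and of a pair of norm exo samples, that they came from different cultures. Which samples of the other groups share a culture was not given in the sources used here, so the p-values measure the spread between these samples, which may be partly technical.

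NRF2 is made continuously and is held down by KEAP1, an adaptor that hands it to the CUL3 ubiquitin ligase for degradation. Oxidants and electrophiles modify cysteines of KEAP1, NRF2 then accumulates in the nucleus, pairs with a small MAF protein (MAFG, MAFK or MAFF) and binds antioxidant response elements near genes of glutathione synthesis, thioredoxin, NADPH supply, detoxification and iron handling. BACH1, a repressor that senses haem, pairs with the same small MAF proteins and occupies the same elements. Much of this control acts on protein, which arrays of RNA do not measure.

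The core of the antioxidant response element, TGACNNNGC, was searched on both strands of the promoter windows of RefSeq (build GRCm38.p6, 250 bases before to 50 after each start). It was found in 12.4% of the 32851 windows, and 14.0% of the 27025 genes with a window had it in at least 1. Of the 10 genes, 8 had a window, and the core was found for 3 of them, Nfe2l2, Mafg and Mafk. It was also found for 2 of 20 other regulators of NRF2 and for 19 of 51 further NRF2 targets, both lists being described with the cells below. Targets with the core included Pgd, higher in oxi cell, and targets not called there, such as Gclm, Srxn1, Me1, Gstm5 and Ugdh. No match was found for Ptgr1, Acot7, Cbr3, Cbr1, Aldh3a1 or Txn1, which were also higher in oxi cell, though some may lack a window. The 6 sequences that follow are those of the 3 genes Nfe2l2, Mafg and Mafk and of 3 further targets that were higher in oxi cell (Txnrd1, Pir and Psmb5). Each is written 5′ to 3′ on the strand of its gene, with the 9 bases of the core in capitals; where the core lies on the other strand it reads as its reverse complement. Such a match describes the letters and does not show binding.
Nfe2l2, chr2:75704875-75704913, minus strand: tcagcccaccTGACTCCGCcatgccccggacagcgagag
Mafg, chr11:120633741-120633789, minus strand: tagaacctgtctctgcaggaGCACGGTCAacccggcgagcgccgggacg
Mafk, chr5:139791503-139791551, plus strand: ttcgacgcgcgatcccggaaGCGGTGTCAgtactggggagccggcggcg
Txnrd1, chr10:82859094-82859142, plus strand: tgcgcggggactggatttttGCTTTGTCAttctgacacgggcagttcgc
Pir, chrX:164269197-164269245, plus strand: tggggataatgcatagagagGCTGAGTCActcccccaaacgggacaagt
Psmb5, chr14:54618014-54618062, minus strand: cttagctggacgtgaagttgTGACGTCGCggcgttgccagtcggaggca
The core began 240 bases before the start in Nfe2l2, 222 in Mafg, 13 in Mafk, 92 in Txnrd1, 214 in Pir and 47 in Psmb5. Of these 6 matches, that of Pir also holds the letters TGANTCA, which AP-1 factors bind.

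The signals are MAS5.0 intensities on a linear scale with a trimmed mean of 100 on every array, and differences are given as log2 with a 95% interval from limma, adjusted over all 45037 probe sets. Each gene is given by its probe set of highest mean log2 signal. As a background for each array the 95th percentile was taken over 253 probe sets, of 213 genes typical of unrelated tissues. This background averaged 16.9 ± 1.49 (SD, n = 4) on norm cell arrays, 13.7 ± 1.05 on oxi cell, 247 ± 25.3 on norm exo and 268 ± 15.5 on oxi exo arrays. It was exceeded on all 4 arrays of a group by 50.8% of genes for norm cell, 51.7% for oxi cell, 5.93% for norm exo and 3.2% for oxi exo. The exosome arrays also had higher 3′ to 5′ signal ratios of actin, a sign of shorter RNA or cDNA, with means of 5.35 ± 1.23 (norm exo) and 3.86 ± 0.776 (oxi exo) where the cells had 1.43 ± 0.0193 (norm) and 1.38 ± 0.113 (oxi). Of 10 mast cell markers measured, 9 exceeded background in norm cell, all but Tpsab1, and all 10 did in oxi cell, with Fcer1a and Kit, the IgE and stem cell factor receptors, among them. In the exosomes 6 did in norm exo and 2 in oxi exo (Fcer1a and Gata2). Of markers of other cell types, 2 or 3 of 11 of macrophages and neutrophils (Csf1r and Cd14, with Mpo in oxi cell), 2 of 6 of erythroid cells (Klf1 and Epor), 0 or 1 of 8 of lymphocytes (Cd8a in oxi cell) and 1 of 10 of fibroblasts and endothelium (Pecam1) exceeded background in the cells, and 0 of each list in the exosomes. In a population measured in bulk, fewer cells with a transcript and less transcript per cell cannot be told apart.

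In the cells, all 10 genes exceeded background on all 8 arrays. After H2O2, 1 of the 10 was called higher (Nqo1) and 1 lower (Bach1), where 6.42% of all genes were called higher and 5.46% lower (12.2% and 10.1% of the genes above background on all 4 arrays of either group). The counts for the 10 genes are therefore close to those of the array as a whole. The median difference was 0.021 over the 10 genes and -0.089 over all genes. All genes include many below background in the cells, so these medians do not set like genes side by side.

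**Figure D1:**
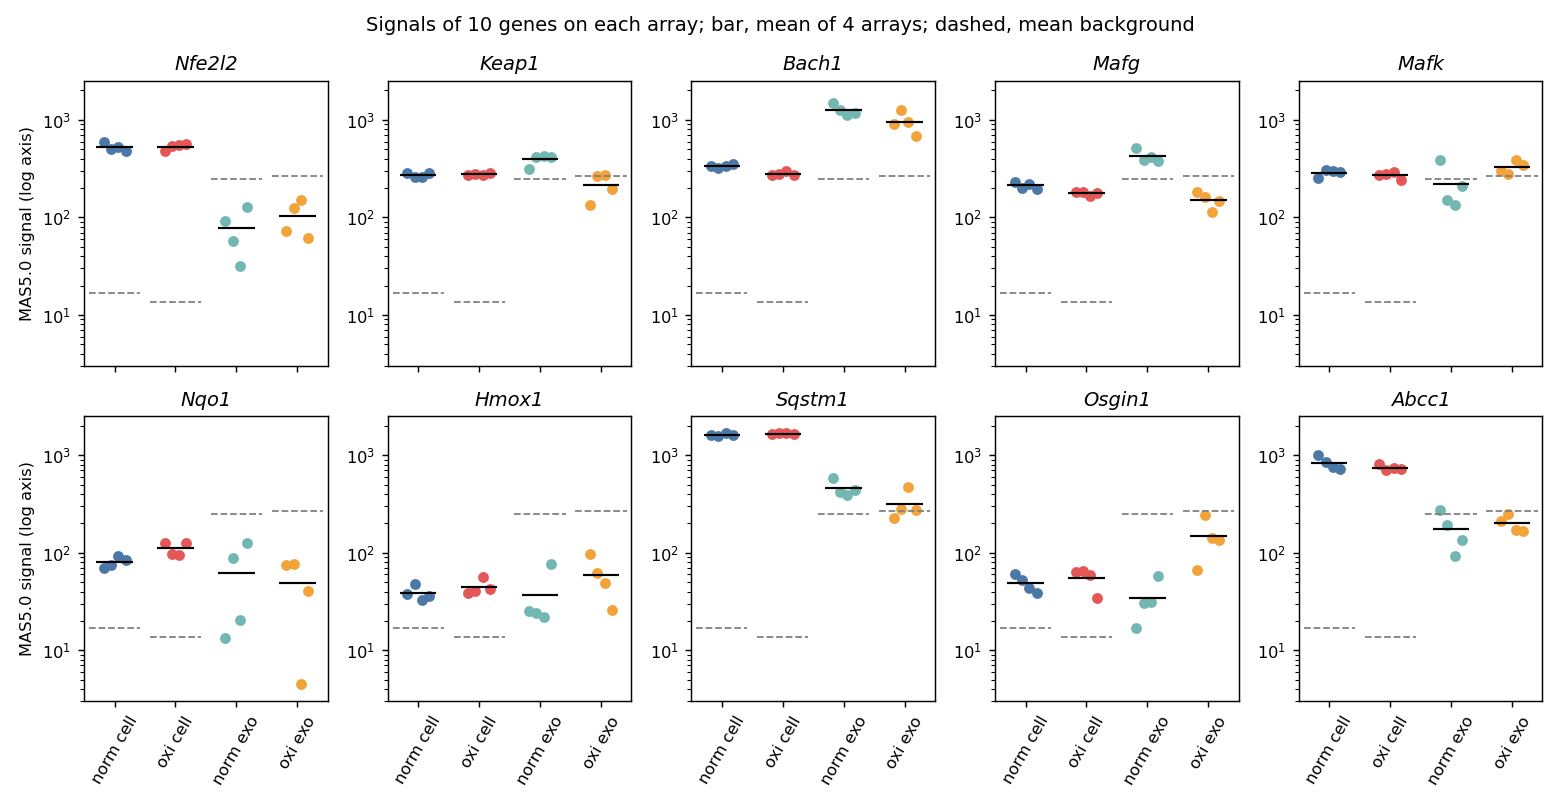
Signals (MAS5.0, log axis) of the 10 genes on each of the 16 arrays, with the mean of 4 arrays as a bar and the mean background of the group as a dashed line. All cell signals lie above background, and Nfe2l2, Nqo1 and Hmox1 lie below it on all 8 exosome arrays.

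Nfe2l2, which encodes NRF2 itself, had signals of 588, 505, 528 and 480.0 in norm cell 1 to 4 and of 476, 538, 552 and 564 in oxi cell 1 to 4. The groups overlapped, and the difference was 0.022 (95% interval -0.16 to 0.20, adjusted p = 0.918). The other probe set of Nfe2l2 was dim, its mean being 55.2 in norm cell against 37.3 in oxi cell, and it differed by -0.77 (adjusted p = 0.123).

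Keap1, the adaptor that directs NRF2 to degradation, ranged from 258 to 287 in norm cell and from 270.5 to 283 in oxi cell, so that the oxi cell values lay within those of norm cell. The difference was 0.019 (-0.13 to 0.17, adjusted p = 0.911). Its second probe set, with means of 114 and 80.8, differed by -0.53 (adjusted p = 0.0897), and the 2 probe sets did not give the same picture.

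Bach1, the repressor at the same elements, had 337, 325, 336 and 351 in norm cell and 270.2, 277, 301 and 273 in oxi cell. All oxi cell values were below all norm cell values, as were those of 10.2% of all genes. The difference was -0.27 (-0.41 to -0.12, adjusted p = 0.0273), lower in 4 of 4 pairs of equal replicate number, as the lack of overlap implies. The call was lost when pair 1, 2 or 4 was left out (adjusted p = 0.105, 0.0832 and 0.132), and on the scale of the spiked controls the difference was 0.029 (adjusted p = 0.889). The second Bach1 probe set, at means of 28.7 and 26.1, differed by -0.12 (adjusted p = 0.812).

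Mafg, a small MAF partner of NRF2 and of BACH1, had 230.4, 201, 222 and 197 in norm cell and 181, 183, 166 and 177 in oxi cell. The groups did not overlap, as in 10.2% of all genes on the lower side. The difference of -0.26 (-0.44 to -0.09) missed the threshold (adjusted p = 0.0651) and passed it without the pairs as a block (adjusted p = 0.0381). The second probe set fell by 0.49 on the log2 scale, from a mean of 150 ± 13.6 to 107 ± 7.91 (SD, n = 4 each), and was called (adjusted p = 0.0115). On the scale of the spiked controls the first probe set differed by 0.034. Mafk, a further small MAF, ranged from 256 to 308 in norm cell and from 244 to 290.1 in oxi cell, and the difference was -0.093 (-0.26 to 0.07, adjusted p = 0.529).

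Nqo1, which encodes a quinone reductase and is among the most used readouts of NRF2, had 70.2, 74.6, 92.0 and 83.9 in norm cell and 127, 96.9, 94.1 and 125 in oxi cell. All oxi cell values were above all norm cell values, as were those of 9.43% of all genes, though oxi cell 3 and norm cell 3 were close. The difference was 0.46 (0.17 to 0.75, adjusted p = 0.0485), higher in 4 of 4 pairs, which the lack of overlap implies. Leaving out pair 1, 2 or 4 gave adjusted p of 0.229, 0.118 and 0.167, and log2(signal + 100) gave 0.22 (adjusted p = 0.0924).

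Hmox1, the haem-degrading oxygenase that BACH1 represses, stayed dim, at 37.6, 48.3, 32.6 and 36.1 in norm cell and 38.4, 41.0, 57.0 and 42.8 in oxi cell. The ranges overlapped and the difference was 0.21 (-0.20 to 0.63, adjusted p = 0.577). Sqstm1, which encodes p62, an autophagy receptor that binds KEAP1, was steady at 1586 to 1670.4 in norm cell and 1652 to 1684 in oxi cell, a difference of 0.038 (-0.07 to 0.15, adjusted p = 0.723). Osgin1, an oxidative stress induced growth inhibitor, had 38.4 to 60.6 and 34.4 to 64.7, a difference of 0.17 (-0.16 to 0.50, adjusted p = 0.569). Abcc1, which encodes an exporter of glutathione conjugates, had 730.1 to 1000.3 in norm cell and 708 to 820.4 in oxi cell. The difference of Abcc1 was -0.16 (-0.30 to -0.02, adjusted p = 0.172), lower in 4 of 4 pairs, a count not made over all genes. Its second probe set differed by -0.18 (adjusted p = 0.302).

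The deposited scale matters for these small differences. The median difference of oxi cell from norm cell over all probe sets was -0.15 as deposited and 0.0015 once the arrays had been quantile normalized, and it turned to 0.15 when they were scaled to the spiked controls. The spiked controls are 9 probe sets of RNAs added to each hybridisation in a set amount. With that scaling all 10 genes had differences above 0, and Nfe2l2 (0.32, adjusted p = 0.0164), Keap1 (0.32, adjusted p = 0.0149), Sqstm1 (0.33, adjusted p = 0.00239) and Nqo1 were called higher.

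**Figure D2:**
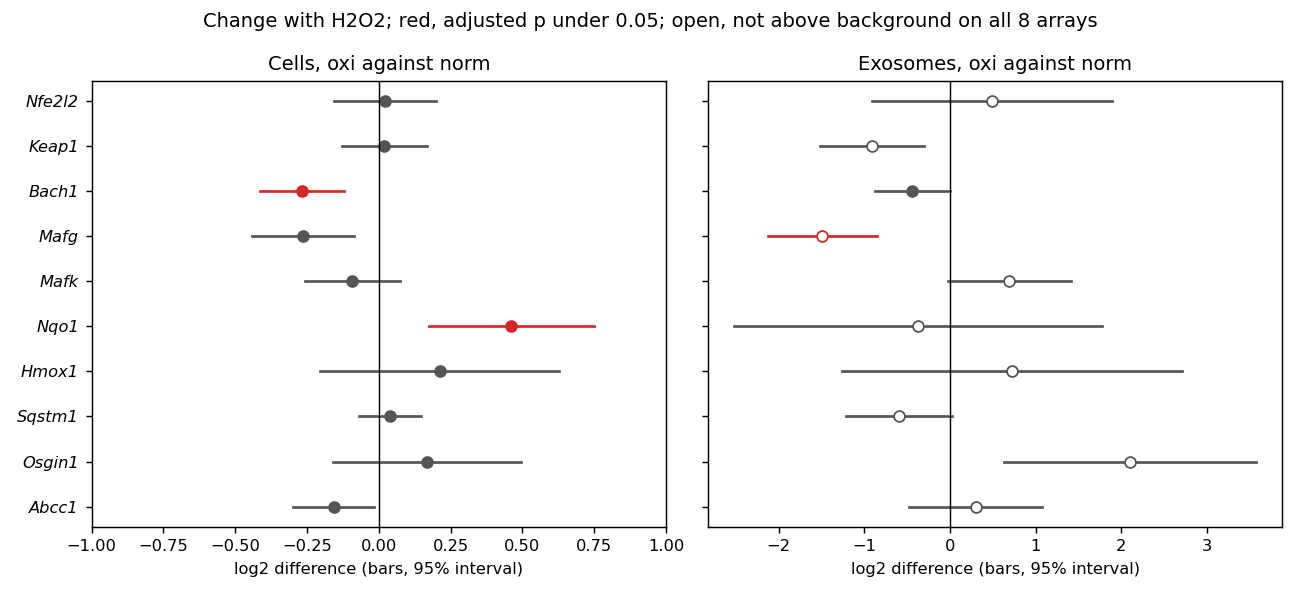
Log2 differences of the 10 genes after H2O2 in cells (left) and in exosomes (right), with 95% intervals as bars, on axes of different width. Red marks an adjusted p under 0.05 (Bach1 and Nqo1 in cells, Mafg in exosomes), and open symbols mark genes not above background on all 8 arrays, which include 9 of the 10 in exosomes and whose place shows a fitted value, not a measured size.

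Beyond the 10 genes, 53 of 61 listed further targets of NRF2 were measured by a probe set with 1 symbol. This list, like the 10 genes, was chosen with earlier results of these data known. In the cells, 10 of the 53 were called higher and 2 lower. Of all genes 6.42% were called higher and 5.46% lower. Of the genes above background on all 4 arrays of either group these shares were 12.2% and 10.1%. Of the 53 targets, 38 exceeded background on all 4 oxi cell arrays. The median difference was 0.085 against -0.089 over all genes. Of all genes 51.7% exceeded background on all 4 oxi cell arrays, so these medians do not set like genes side by side. The 10 higher genes were Ptgr1, Txnrd1, Acot7, Pir, Cbr3, Psmb5, Cbr1, Pgd, Aldh3a1 and Txn1, and the 2 lower ones were Gclc and Slc48a1. On the scale of the spiked controls 27 were higher and 0 lower by limma.

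Ptgr1, a reductase of prostaglandins and reactive aldehydes, had between 10.9 and 21.4 in norm cell, above background on 1 of 4 arrays, and 47.7, 38.7, 44.4 and 48.2 in oxi cell, above it on 4. The difference of 1.58 (1.05 to 2.12, adjusted p = 0.0021) was the largest of the list. Txnrd1, the cytosolic thioredoxin reductase, had 348, 356, 344 and 330 in norm cell and 652, 560.2, 509 and 517 in oxi cell, with a difference of 0.69 (0.54 to 0.85, adjusted p = 0.00021). Its other probe sets were dim, with means of 27.8 and 11.7 in norm cell. The former differed by 0.17 (adjusted p = 0.774). The latter, not above background on any norm cell array, was not called (adjusted p = 0.995).

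Acot7, an acyl-CoA thioesterase, rose from a mean of 1508 ± 57.5 to 2236 ± 45.1 (SD, n = 4 each), a difference of 0.57 (adjusted p = 0.000126). Pir, an iron-binding nuclear protein, rose from 56.0 ± 4.45 to 81.4 ± 4.87, by 0.54 (adjusted p = 0.0127), and lost the call without pair 1, 2 or 4 (adjusted p = 0.0542, 0.0727 and 0.0507). Psmb5, a catalytic subunit of the proteasome, rose from 761 ± 39.7 to 1066 ± 58.6, by 0.49 (adjusted p = 0.000501). For each of these 3 genes the groups did not overlap, as in 9.43% of all genes on the higher side.
The carbonyl reductases Cbr3 and Cbr1 rose by 0.53 (adjusted p = 0.000666) and 0.43 (adjusted p = 0.00361). Pgd, an NADPH-making enzyme of the pentose phosphate pathway, rose from 1255 ± 89.0 to 1634 ± 55.3, by 0.38 (adjusted p = 0.00107), and its other 3 probe sets were also called higher, by 0.23 to 0.80. Its pathway partner Tkt differed by -0.097 (adjusted p = 0.341).

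The genes of glutathione synthesis were not among those called higher. Gclc, the catalytic subunit of glutamate-cysteine ligase, had 172, 147, 149 and 153 in norm cell and 128, 117, 115 and 108 in oxi cell. The groups did not overlap, as in 10.2% of all genes on the lower side. The difference was -0.41 (-0.59 to -0.22, adjusted p = 0.0101), and the second probe set fell by 0.33 (adjusted p = 0.0204). The call was lost without pair 1 or 4 (adjusted p = 0.0504 and 0.0548), and on the scale of the spiked controls the difference was -0.11 (adjusted p = 0.595). Gclm, the modifier subunit of the same enzyme, differed by 0.085 (-0.07 to 0.24, adjusted p = 0.545), and Srxn1, sulfiredoxin, by 0.038 (-0.20 to 0.28, adjusted p = 0.889). Slc7a11, the cystine transporter, did not exceed background on any of the 16 arrays. Slc48a1, a haem transporter, fell by 0.40 on the log2 scale (adjusted p = 0.00535). Its second probe set differed by -0.10 (adjusted p = 0.521), and on the scale of the spiked controls the first differed by -0.099 (adjusted p = 0.598).

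**Figure D3:**
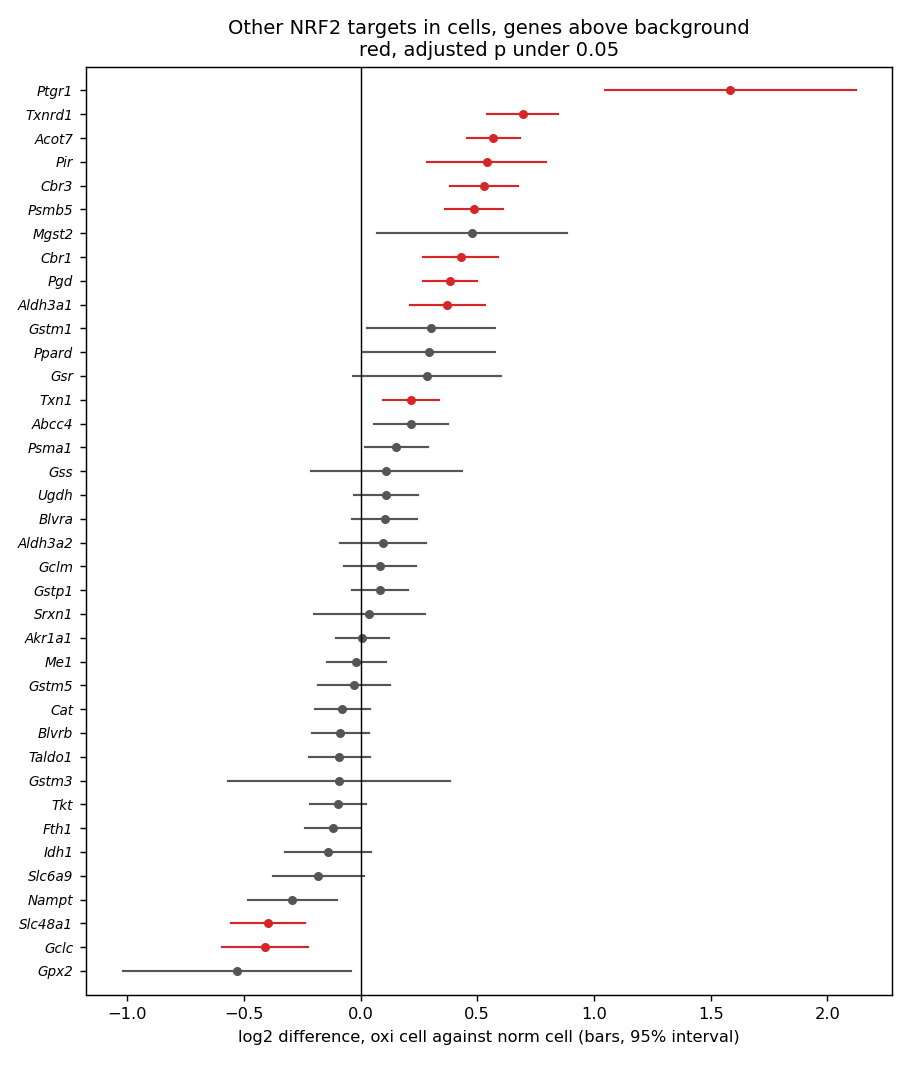
Log2 difference between oxi cell and norm cell for the 38 further NRF2 targets that exceeded background on all 4 arrays of either group, with 95% intervals as bars. Red marks an adjusted p under 0.05, which 10 genes passed above 0 and 2 (Gclc and Slc48a1) below it.

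Of 24 further regulators of NRF2, 23 were measured, and in the cells 2 were called higher and 2 lower, with a median of -0.056. Of all genes 6.42% were called higher and 5.46% lower. Of those above background on all 4 arrays of either group these shares were 12.2% and 10.1%, so the counts are close to those of the array. Higher were Skp1, a subunit of the SCF ubiquitin ligase (0.36, adjusted p = 0.00179), and Vcp, a segregase that pulls ubiquitinated proteins towards the proteasome (0.33, adjusted p = 0.00255). Lower were Dcaf11, a substrate receptor of the CUL4 ligase (-0.27, adjusted p = 0.0194), and Ep300, a co-activator and acetyltransferase (-0.27, adjusted p = 0.0476). The latter 2 were lost without pair 1, 2 or 4, which left 0 regulators lower by limma, and on the scale of the spiked controls 9 regulators were higher and 0 lower. Cul3, the ligase that works with KEAP1, differed by 0.19 (adjusted p = 0.0555). In the same arrays 6 of 10 mast cell markers were called lower and 2 higher, with summed signals of 39256 to 43103 in norm cell and 29354 to 35089 in oxi cell; their part in the differences above was not tested.

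In the exosomes, 4 of the 10 genes exceeded background on all 4 norm exo arrays (Keap1, Bach1, Mafg and Sqstm1) and 2 on all 4 oxi exo arrays (Bach1 and Mafk). Nfe2l2, Nqo1 and Hmox1 did not exceed it on any of the 8. Only Mafg was called between oxi exo and norm exo, as lower, and 0 genes of the 10 were called higher (2.25% and 0.022% of all genes; 30.3% and 0.168% of those above background on all 4 arrays of either group). The median over the 10 genes was -0.035 and over all genes 0.00080. Unadjusted, 4 of the 10 had a p under 0.05 in limma, as did 4 of the 10 in cells. The share of all genes with an unadjusted p under 0.05 was not counted.

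Mafg had 512, 386, 413 and 378 in norm exo, all above background, and 182, 160.3, 114 and 149 in oxi exo, all below it. The groups did not overlap, as in 5.44% of all genes on the lower side. Since oxi exo gave only a bound, Mafg was at least 1.56-fold lower there (adjusted p = 0.0123). The second probe set had 489.6, 521, 364 and 491 in norm exo and 194, 173, 111 and 13.8 in oxi exo, was at least 1.72-fold lower and was also called (adjusted p = 0.0166). Without pair 1 the adjusted p of the first was 0.0616.

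Keap1 had 315, 419, 431 and 418 in norm exo and 133, 266, 272 and 198 in oxi exo. The groups did not overlap, as in 5.44% of all genes on the lower side, and 1 of 4 oxi exo arrays exceeded background. The difference was -0.91 (-1.51 to -0.30, adjusted p = 0.190). Bach1 stayed far above background in both groups, at 1487, 1273, 1112 and 1172 in norm exo and 902, 1267, 945 and 678 in oxi exo. The ranges overlapped through oxi exo 2, and the difference was -0.44 (-0.87 to -0.0038, adjusted p = 0.507) as deposited but 0.32 after quantile normalization (adjusted p = 0.635).

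Mafk had 386, 152, 135 and 210.3 in norm exo, above background on 1 array, and 302, 281, 385 and 347 in oxi exo, above it on 4. Norm exo 1 matched the highest oxi exo array, the ranges overlapped, and the difference was 0.69 (-0.02 to 1.41, adjusted p = 0.528). Of the small MAF pair, Mafg alone was called in exosomes.

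Among the targets, Sqstm1 had 587, 422, 391 and 443 in norm exo and 227, 284, 469 and 273 in oxi exo, above background on 4 and 2 arrays. Oxi exo 3 lay within the norm exo range, and the difference was -0.59 (-1.21 to 0.02, adjusted p = 0.531). Osgin1 had 16.8, 30.6, 31.6 and 57.6 in norm exo and 66.9, 246, 142 and 135 in oxi exo. All oxi exo values were above all norm exo values, as in 2.37% of all genes on the higher side, but a single value, that of oxi exo 2, exceeded background. The test missed the threshold (adjusted p = 0.229), and with both groups mostly under background the size of the difference is not given. Abcc1 had 274, 193, 92.0 and 136 in norm exo and 212, 252, 172 and 166 in oxi exo, with 0 and 1 arrays above background. The ranges overlapped, and it was not called (adjusted p = 0.849).

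Of the 53 further targets, 0 were called higher and 5 lower in oxi exo by limma. Of all genes 0.022% were called higher and 2.25% lower. Of those above background on all 4 arrays of either group these shares were 0.168% and 30.3%. The median over the targets was -0.39 against 0.00080 over all genes. Only 9 of the 53 exceeded background on all 4 norm exo arrays and 2 on all 4 oxi exo arrays. This median therefore rests mostly on genes not above background throughout. The 5 were Fth1, Akr1a1, Tkt, Slc48a1 and Pgd. Akr1a1, an aldo-keto reductase, was the brightest of them, at 4038, 4277, 2678 and 3514 in norm exo and 1098, 1461, 1299 and 618 in oxi exo. The difference was -1.75 (-2.21 to -1.28, adjusted p = 0.000345), and its other 3 probe sets fell by 1.55 to 1.85 and were all called.
Fth1, the ferritin heavy chain that stores iron, had 1841, 1805, 1131 and 1252 in norm exo and 566, 719, 545 and 126 in oxi exo, a difference of -1.85 (-2.48 to -1.22, adjusted p = 0.00193). Its second probe set differed by -0.44 (adjusted p = 0.612), and the mean over its probe sets was not called (adjusted p = 0.161). Tkt had 2011, 2350.0, 1387 and 1162 in norm exo and 645, 505, 631 and 303 in oxi exo, a difference of -1.73 (-2.20 to -1.27, adjusted p = 0.000345), and its second probe set, below background on all 4 oxi exo arrays, was also called lower (adjusted p = 0.0287).

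Slc48a1 had means of 872 ± 182 in norm exo and 276 ± 97.6 in oxi exo, with 2 of the 4 oxi exo arrays above background, and differed by -1.71 (adjusted p = 0.000855). Its second probe set, with 3 norm exo and 0 oxi exo arrays above background, was not called (adjusted p = 0.249). Pgd was below background on all oxi exo arrays and at least 1.64-fold lower (adjusted p = 0.0205). Of its other 3 probe sets, 1 was called lower (adjusted p = 0.0261) and 2 were not (adjusted p = 0.141 and 0.758), and the mean over all 4 was not called (adjusted p = 0.163). The brightest probe set lost its call without pair 1, 2 or 4 (adjusted p = 0.158, 0.0566 and 0.0802) and on the scale of the spiked controls (adjusted p = 0.0555). After quantile normalization 2 of the 5 were called, and Fth1, Akr1a1 and Pgd were not (adjusted p = 0.0817, 0.0756 and 0.0634). Several of these probe sets end in _x_at, the suffix Affymetrix gives where probes can also match other transcripts.

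Of the usual readouts of NRF2, Gclm, Gclc, Txnrd1 and Slc7a11 did not exceed background on any exosome array. Srxn1 did on 1 oxi exo array by its brightest probe set and on 2 norm exo arrays by another. Of the 23 further regulators, 2 were called lower in oxi exo and 0 higher. Of all genes 2.25% were called lower and 0.022% higher. Of those above background on all 4 arrays of either group these shares were 30.3% and 0.168%. On all 4 arrays, 4 of the 23 exceeded background in norm exo and 1 in oxi exo. Vcp was below background in oxi exo and at least 1.71-fold lower (adjusted p = 0.0310). Fbxw11, a substrate receptor of the SCF ligase, had means of 849 ± 279 in norm exo and 419 ± 208 in oxi exo and differed by -1.07 (adjusted p = 0.0450), with overlapping ranges, and its other 4 probe sets, with 0 or 1 arrays of a group above background, were not called. Both calls were lost without pair 1 (adjusted p = 0.167 and 0.304), without pair 2 (0.172 and 0.0782), without pair 4 (0.0688 and 0.151), after quantile normalization (0.0746 and 0.380) and on the scale of the spiked controls (0.0840 and 0.148). On the same arrays 4 of 10 mast cell markers were called lower and 0 higher, with summed signals of 3974 to 6543 in norm exo and 1690 to 2289 in oxi exo; their part in the differences above was not tested.

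More genes were called between exosomes and cells than between the conditions, and the size and sign of the differences moved with the scale. For norm exo against norm cell the median over all probe sets was 2.23 as deposited, 0.15 when quantile normalized and -1.88 when scaled to the spiked controls. For oxi exo against oxi cell these medians were 2.67, 0.21 and -1.71. The spiked controls themselves averaged 792 ± 56.8 (norm cell), 645 ± 48.4 (oxi cell), 13717 ± 1603 (norm exo) and 13435 ± 1291 (oxi exo). As deposited, 2 of the 10 genes were higher and 3 lower in norm exo than in norm cell (53.2% and 25.0% of all genes), and 2 higher and 4 lower in oxi exo than in oxi cell (54.4% and 26.7%). On the scale of the spiked controls all 10 were lower in both comparisons. The medians over the 10 genes, -0.57 and -0.32, lay below those over all genes by brightest probe set, 1.67 and 1.93. However, all 10 exceeded background in the cells, where 50.8% (norm cell) and 51.7% (oxi cell) of all genes did. The background was also higher on exosome arrays, at 247 and 268 against 16.9 and 13.7. The medians therefore do not set like genes side by side. Those of 10 mast cell markers were lower still, at -2.56 and -4.07.

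Of the 10 genes, Bach1 had the highest exosome signals relative to its cell signals, with 1112 to 1487 in norm exo against 325 to 351 in norm cell. The difference was 1.89 (1.48 to 2.31, adjusted p = 3.66e-05) in normal conditions and 1.72 (1.17 to 2.28, adjusted p = 0.000242) with H2O2, but -2.21 and -2.65 on the scale of the spiked controls. As deposited, these were close to the medians over all genes by brightest probe set, 1.67 and 1.93. The second Bach1 probe set did not exceed background on any exosome array, so that the level rests on a single probe set. Mafg was higher in norm exo than in norm cell by 0.98 (0.49 to 1.48, adjusted p = 0.00269) at the first probe set and by 1.63 (adjusted p = 0.000275) at the second, but on the scale of the spiked controls the first differed by -3.13. As deposited, these differences were below the median of 1.67 over all genes. In oxi exo against oxi cell the first probe set was not called (adjusted p = 0.449), with all 4 oxi exo arrays below background.

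Between norm exo and norm cell, Nfe2l2 was lower in the exosomes by at least 2.13-fold (adjusted p = 9.05e-05) and between oxi exo and oxi cell by at least 1.98-fold (adjusted p = 0.000131). Sqstm1 was lower by 1.83 on the log2 scale in norm exo (-2.24 to -1.42, adjusted p = 3.86e-05) and by 2.47 in oxi exo (-3.03 to -1.91, adjusted p = 5.4e-05), but by 0.40 in norm exo after quantile normalization (adjusted p = 0.0896). Abcc1 was lower by at least 3.36-fold in norm exo (adjusted p = 4.89e-05) and lower by 1.91 in oxi exo (adjusted p = 0.000153), where 1 of 4 arrays exceeded background. Under the 3 scalings the differences of these 3 genes stayed below 0, quantile normalization leaving Sqstm1 in norm exo without a call. The mean over the 2 probe sets of Sqstm1 gave 0.44 in norm exo (adjusted p = 0.350) and -0.024 in oxi exo (adjusted p = 0.943), the second probe set being below background on all 16 arrays.

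Nqo1 was called lower (adjusted p = 0.0296) and Osgin1 higher (1.31, adjusted p = 0.0172) in oxi exo than in oxi cell, yet their oxi exo signals exceeded background on 0 and 1 of 4 arrays, and the background there was above every cell signal of both genes. No fold is given for Nqo1 for that reason, and its call was lost without pair 3 or 4 (adjusted p = 0.0996 and 0.0673). The Osgin1 call was lost without pair 2 or 4 (adjusted p = 0.0741 and 0.0705), and its difference was 0.18 once quantile normalized (adjusted p = 0.853) and -3.07 when scaled to the spiked controls. Keap1 differed by 0.53 (0.02 to 1.03, adjusted p = 0.0540) in norm exo against norm cell and by -0.40 (-1.06 to 0.26, adjusted p = 0.227) in oxi exo against oxi cell. The first was 1.39 and called after quantile normalization (adjusted p = 0.00198), -3.58 on the scale of the spiked controls, and was also called without the pairs as a block, with the filter on low signals, log2(signal + 100), a floor at background, and without pair 1 (adjusted p = 1.92e-06 to 0.0472). The second Keap1 probe set was called lower in the exosomes in both comparisons (adjusted p = 0.00903 and 0.00449). It was below background on all exosome arrays, so no size is given. Hmox1 and Mafk were not called in either comparison as deposited.

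**Figure D4:**
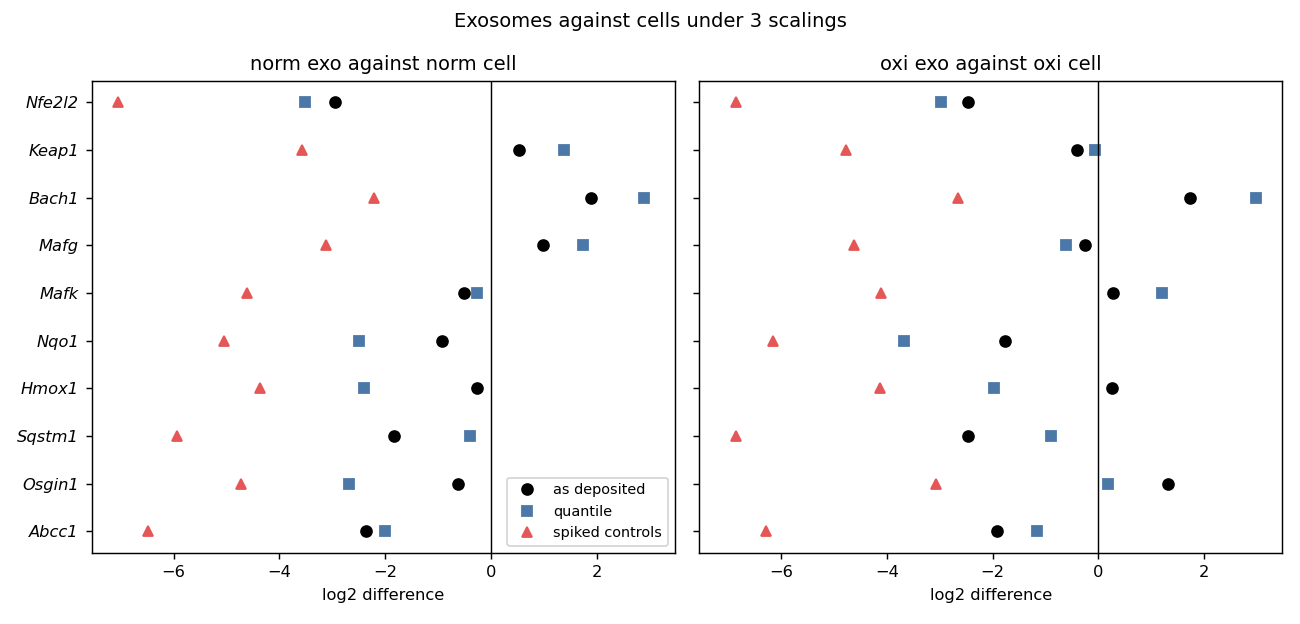
Log2 differences of the 10 genes between exosomes and cells in normal conditions (left) and with H2O2 (right) under 3 scalings (black circles, as deposited; blue squares, quantile normalization; red triangles, spiked controls). Bach1 lies above 0 with the first 2 scalings and below it with the spiked controls, which put all 10 genes below 0. Fitted differences are drawn also where exosome signals were below background.

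The change with H2O2 in exosomes was set against the change in cells in a test of the difference itself. Of the 10 genes, 0 were called by limma (0.0495% of all genes higher and 1.92% lower). Without adjustment 3 had a p under 0.05, a share that was not counted over all genes. These were Keap1, with a difference of -0.93 (-1.56 to -0.29, adjusted p = 0.179), Mafg (adjusted p = 0.0856) and Osgin1 (adjusted p = 0.122), the last 2 with a group of exosomes below background on all 4 arrays, so that only Keap1 is given a size. Mafg was called without the pairs as a block (adjusted p = 0.0392) and on the scale of the spiked controls (adjusted p = 0.0419). For the other 7 genes the intervals included 0, and 4 of these genes (Nfe2l2, Nqo1, Hmox1 and Abcc1) were below background on all arrays of at least 1 exosome group. Among the further targets 4 of 53 differed, all with a lower value in exosomes: Pgd, Tkt, Akr1a1 and Txn1, of which Pgd was below background on all oxi exo arrays. Of the 23 further regulators 0 were called by limma, with 5 under an unadjusted p of 0.05, again without a share over all genes.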

How the data were processed

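Exosomes and cells of the mouse mast cell line MC/9 had been measured on Affymetrix Mouse 430 arrays (45101 probe sets; the paper names the 430A array), with 4 arrays for each of 4 groups. Signal intensities were deposited, unlogged. The authors obtained them with MAS5.0 (GCOS 1.2, per the submitters' processing notes), and every array has a mean of 100 once 2% of its probe sets are trimmed at each end. No detection calls were used. With every array brought to one mean, a transcript is read relative to the others on its array, and a shift common to most transcripts is not seen.

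After removal of 64 Affymetrix controls, limma 3.58.1 (R 4.3.3) was run on the log2 signals of 45037 probe sets, with lmFit and a trended eBayes. Each comparison used its own 8 arrays, and pairs of equal replicate number formed a block, following the paired test of the paper's methods. The change in exosomes minus the change in cells was fitted on the 8 within-pair differences. Benjamini-Hochberg adjustment covered the whole array, with a threshold of 0.05, and the number of arrays limits the precision. The platform annotation gave 1 gene symbol for 34945 probe sets, several for 932 and no symbol for 9160, and genes were named from the first kind. Where a probe set was not above background on any array of a group, the difference is printed as "at least", from the bright group's mean and the background of the dim one (means of log2 values), and with no size where that bound was under 1 or both groups were dim. Values under the alternatives, and that of Pgd in the difference of changes, are fitted values given also for such groups, where the size was not measured.

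Named were the 10 genes, each by its brightest probe set, the readouts Gclm, Gclc, Srxn1, Txnrd1 and Slc7a11, and up to 10 genes of largest change from the lists of further regulators and further targets, if past the threshold, changed alike in 4 of 4 pairs and above background in at least 1 group. Cul3, Skp1, Dcaf11, Ep300, Aldh3a1, Txn1 and, in cells, Tkt and Vcp were named after their values were seen. The members and lists were chosen with earlier results of these data known. Of the marker lists, 10 of 12 mast cell, 11 of 12 macrophage and neutrophil, 6 of 10 erythroid, 8 of 10 lymphocyte and 10 of 10 fibroblast and endothelium markers were measured. The scripts were tested on simulated data. As alternatives, the block was dropped, arrays were quantile normalized or scaled to 9 spiked control probe sets, probe sets below the median signal were filtered out, 100 was added before the log2, signals were floored at background, the paper's paired test was applied to linear and to log2 signals, probe sets of a gene were averaged, and each pair was left out. Summaries, promoter searches and plots were made in Python 3.11.15 (pandas 2.3.3, numpy 2.4.6, scipy 1.17.1, matplotlib 3.10.9).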

Additional observations from a re-analysis of the deposited data

Results flagged for a closer look

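Within groups of 4 arrays, 3 of 40 sets of values had an array far from its group, where chance gives about 1 in 20. The gap to the nearest other array, as a share of the group's range in log2 signal, was 0.902 for Keap1 in norm exo 1 (the lowest, 315), 0.882 for Hmox1 in norm exo 4 (the highest, 76.0, still below background) and 0.854 for Osgin1 in oxi cell 4 (the lowest, 34.4). The norm exo 1 array of Keap1 stayed above all 4 oxi exo arrays, and Hmox1 and Osgin1 were not called between the conditions in either sample type.

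For 4 further NRF2 targets the change with H2O2 differed between exosomes and cells in the limma test of that difference. For Pgd the fitted value was -1.99 (adjusted p = 0.0232), but all 4 oxi exo arrays were below background, so its size was not measured. Pgd rose by 0.38 in cells, and between oxi exo and norm exo it was lower by at least 1.64-fold. For Akr1a1 it was -1.75 (-2.34 to -1.17, adjusted p = 0.0103), for Tkt -1.64 (-2.15 to -1.12, adjusted p = 0.00874) and for Txn1, thioredoxin, -0.94 (-1.37 to -0.51, adjusted p = 0.0380). In cells Akr1a1 (0.0079) and Tkt (-0.097) were not called and Txn1 rose by 0.22 (adjusted p = 0.0300), and in exosomes Txn1 differed by -0.72 (adjusted p = 0.353). None of the 4 was called with quantile normalization.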

How the results depend on the processing

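Values under the alternatives were tallied for the 10 genes and, for the comparisons of H2O2 with normal, for the readouts and the list genes named by rule. Genes named after their values were seen were left out. Of these values 780 kept their direction and their side of the threshold, 96 lost a call, 37 gained one and 49 turned sign. The causes were not tested. Equal replicate numbers did not deviate together (correlations of deviations from -0.016 to 0.022), so the numbers may not be pairs, and the fit without the replicate block gave 2 genes lower in cells (Mafg, adjusted p = 0.0381, beside Bach1) and 1 lower in the difference of changes (Mafg), called Keap1 in norm exo against norm cell (adjusted p = 0.0175) and lost Nqo1 in oxi exo against oxi cell (adjusted p = 0.0565) and Fbxw11 in exosomes (adjusted p = 0.121). Of the 10 genes, 6 in norm exo and 8 in oxi exo were not above background on all 4 arrays, which limits what can be read from them.

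In cells (1 of the 10 genes higher and 1 lower), the higher count was 4 with scaling to the spiked controls and 0 with log2(signal + 100), a floor at background, either form of the methods' paired test or the mean over a gene's probe sets. The lower count was 2 without the replicate block, with the filter above the median and with the floor, and 0 with the spiked controls and either paired test. Leaving out 1 pair gave 0 to 1 for both. The signs turned for Nfe2l2 with quantile normalization (-0.0085) and the mean over probe sets (-0.38), for Keap1 with the mean over probe sets (-0.26), for Bach1 (0.029), Mafg (0.034), Mafk (0.20) and Abcc1 (0.14) with the spiked controls, for Sqstm1 with quantile normalization (-0.023), for Gclm (-0.065) and Srxn1 (-0.052) with the mean over probe sets, and for Slc7a11 with quantile normalization (0.16) and the spiked controls (0.17). Leaving out 1 pair gave -0.049 to 0.13 for Nfe2l2, -0.0080 to 0.043 for Keap1, -0.020 to 0.11 for Srxn1 and -0.41 to 0.044 for Slc7a11.

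In exosomes (1 lower), the count was 2 with the floor, 0 with either paired test and 0 to 1 with 1 pair left out. The signs turned for Nfe2l2 with the mean over probe sets (-0.085), and for Bach1 (0.32) and Gclc (-0.030) with quantile normalization. Leaving out 1 pair gave -0.092 to 1.00 for Nfe2l2, -1.33 to 0.23 for Nqo1, -0.76 to 0.25 for Gclm, -0.53 to 0.89 for Gclc, -0.017 to 0.69 for Srxn1 and -0.033 to 0.46 for Slc7a11.

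In norm exo against norm cell (2 higher, 3 lower), 0 were higher and 10 lower with the spiked controls, 6 were higher with the floor and 5 lower with quantile normalization. The signs turned with the spiked controls for Keap1 (-3.58), Bach1 (-2.21) and Mafg (-3.13), with the mean over probe sets for Keap1 (-0.64) and Sqstm1 (0.44), and with the floor, which lifts dim exosome signals, for Nqo1 (1.63), Hmox1 (2.69) and Osgin1 (2.36). In oxi exo against oxi cell (2 higher, 4 lower), 0 were higher and 10 lower with the spiked controls, 6 were higher with the floor, 1 with either paired test, and 1 to 2 with 1 pair left out. The signs turned with the spiked controls for Bach1 (-2.65), Mafk (-4.10), Hmox1 (-4.13) and Osgin1 (-3.07), with the floor for Mafg (0.60) and Nqo1 (1.29), and with quantile normalization for Hmox1 (-1.98), which ranged from -0.11 to 0.57 with 1 pair left out.

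In the change in exosomes minus that in cells (0 of 10), 1 was higher with the floor, and 1 was lower without the replicate block, with the spiked controls and with the filter, and 2 with log2(signal + 100) and the floor. The signs turned for Bach1 with quantile normalization (0.50) and for Hmox1 (-0.090) and Osgin1 (-0.047) with the floor, and Nfe2l2 ranged from -0.099 to 1.05 with 1 pair left out.

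Of the further targets, 27 were higher and 0 lower in cells with the spiked controls, 0 and 0 with either paired test, and 4 lower with the floor (10 higher and 2 lower as deposited). In exosomes 2 were lower with quantile normalization and with the mean over probe sets and 0 with either paired test (5 as deposited), and in the difference of changes 7 were lower with log2(signal + 100), 15 with the floor and 0 with quantile normalization, either paired test, or without pair 1 or 2 (4 as deposited). The methods' paired test called 2 probe sets higher and 3 lower of 45037 in cells on linear signals, and 0 on log2 signals and in exosomes on either.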
